A study of Mus musculus with 167 samples.

Results

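The mouse family of miR-297, miR-466, miR-467 and miR-669 is a large set of microRNAs (miRNAs), most of them processed from 1 stretch of an intron of the Sfmbt2 gene. Members were taken by name: every mature miRNA of the 5 count tables whose name starts with miR-297, miR-466, miR-467 or miR-669. This gave 80 of 1915 listed miRNAs, of which 64 were counted at least once and 16 were at 0 in all 167 libraries. A member was tested in a tissue when it had a count in a share of at least 0.5 of that tissue's libraries. 21 members passed this filter in lung, 17 in heart, 24 in brain, 29 in leukocytes (WBC) and 14 in erythrocytes (RBC). 32 members passed it in at least 1 tissue, and 14 passed it in every tissue.

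Sfmbt2 encodes a Polycomb group protein and is expressed from the paternal copy in the placenta. Its intron carries tandem copies of short hairpins that are found in rodents and not in human, and mice that lack the hairpins have abnormal placentas. Each hairpin can yield a mature miRNA from either side of its stem, the 5p and the 3p arm. The seed, bases 2 to 8 of the mature miRNA, pairs with target messenger RNAs, which are then translated less or degraded. Many members are near-identical to one another and rich in UG or CA repeats. How reads that match several names were assigned is not given in the sources used here, so the split of counts between near-identical names is uncertain.

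The libraries came from 35 mice of 2 inbred strains, C3H (C3Hf/Sed/Kam, gnotobiotic) and C57 (C57Bl/6), and no transgene is named for any group. Irradiated mice had received whole thorax lung irradiation (WTLI) under ketamine and xylazine anaesthesia, live mice were bled under isoflurane, and the controls were sham irradiated. Tissues were taken at month 4 in C3H mice and at month 6 in C57 mice, so strain and time point cannot be told apart. All C3H mice were female. For lung, heart, brain and RBC each, the C3H libraries numbered 8 sham and 7 irradiated, and the C57 libraries 15 sham (7 females and 8 males) and 5 irradiated. For WBC they numbered 5 sham and 6 irradiated in C3H, and 11 sham (4 females and 7 males) and 5 irradiated in C57. The irradiated C57 group held 4 males and 1 female, so sex and irradiation overlap in that strain. The paper gives a younger age range before irradiation for males than for females, so sex and age cannot be told apart. The titles carry a letter A or B whose meaning is not given. Library totals ranged from 1794995 to 7865102 counts over all tissues. The defining marker miRNAs set heart and brain apart from the other tissues. Summed cardiac muscle markers reached 50690 to 298863 RPM (reads of a miRNA scaled to the library total) in heart, and 1 irradiated C3H heart stood apart at the low end. Neural markers reached 116688 to 171389 RPM in brain. Lung was not set apart by its epithelial markers, which reached 8381 to 37452 RPM there and up to 41037 RPM in brain, and lung also held 2569 to 8560 RPM of cardiac muscle markers. The blood fractions were not pure, because erythrocyte markers summed to 17913 to 106907 RPM in WBC, where leukocyte markers summed to 10623 to 33447 RPM, and leukocyte markers summed to 8203 to 45244 RPM in RBC. In all of these samples fewer cells of a type and less RNA per cell cannot be told apart.

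The repeats that define the family can be read in the mature sequences. The RefSeq table of GRCm38.p6, the build also called mm10, gave a mature sequence for 8 of the 80 members. They are shown because they display the UG or CA repeats, with the seed in capitals.
miR-466q, chr3:28419988-28420007, plus strand: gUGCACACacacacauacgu
miR-466k, chr3:85467396-85467418, plus strand: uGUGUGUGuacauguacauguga
miR-669n, chr3:115979905-115979924, plus strand: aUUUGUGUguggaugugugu
miR-467g, chr5:34732872-34732892, minus strand: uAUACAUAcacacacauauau
miR-467h, chr9:115381898-115381919, plus strand: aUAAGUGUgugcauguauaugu
miR-466j, chr10:60960802-60960824, plus strand: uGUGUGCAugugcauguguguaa
miR-467f, chr11:69635419-69635439, minus strand: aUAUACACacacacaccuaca
miR-466i-3p, chr13:17747552-17747573, plus strand: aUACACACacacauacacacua
No 2 of these 8 members shared a seed, and the seed of miR-467h was also that of miR-668-5p, which is no member. The letters UGUGUGU or ACACACA, searched on the mature strand, were in 7 of the 8, with miR-467h the exception. Among the sequences of all other miRNAs that matched the table, 9 (0.557%) held either motif. All 8 loci lie outside Sfmbt2, and they gave almost no reads: miR-466k had 36 counts, miR-466q 22, miR-466i-3p 6, miR-466j 5, miR-467h 2 and miR-467g 1 over all libraries, while miR-669n and miR-467f had 0.

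Nearly all family counts came from Sfmbt2. The gene spans chr2:10370510-10595253 on the plus strand of GRCm38, and 71 of the 81 annotated family hairpins lie in it between 10466663 and 10518279, a stretch of 51.6 kb. None of these 71 overlapped an exon, so all are intronic. The 68 members whose hairpins all lie in Sfmbt2 held 99.6% of family counts, and the 9 members with no hairpin there held 0.138%. The hairpin Mir297-1 on chromosome 7 was matched to no member by name. The place of miR-297a (226 counts of the 5p and 38 of the 3p arm), counted here as Sfmbt2, is therefore less sure. Output was uneven along the stretch. miR-669c-5p, from a single hairpin at 10509296 to 10509404, had 16328 counts, more than any other member. miR-467c-5p, from a single hairpin at 10473931 to 10474027, had 9691 counts, and miR-467e-5p, from 10505721 to 10505807, had 5479. miR-467a-5p had 4038 counts and is encoded by 10 hairpins, so its locus of origin cannot be told apart. By name, miR-669 held 47.7% of family counts, miR-467 38.9%, miR-466 12.4% and miR-297 1.03%.

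**Figure D1:**
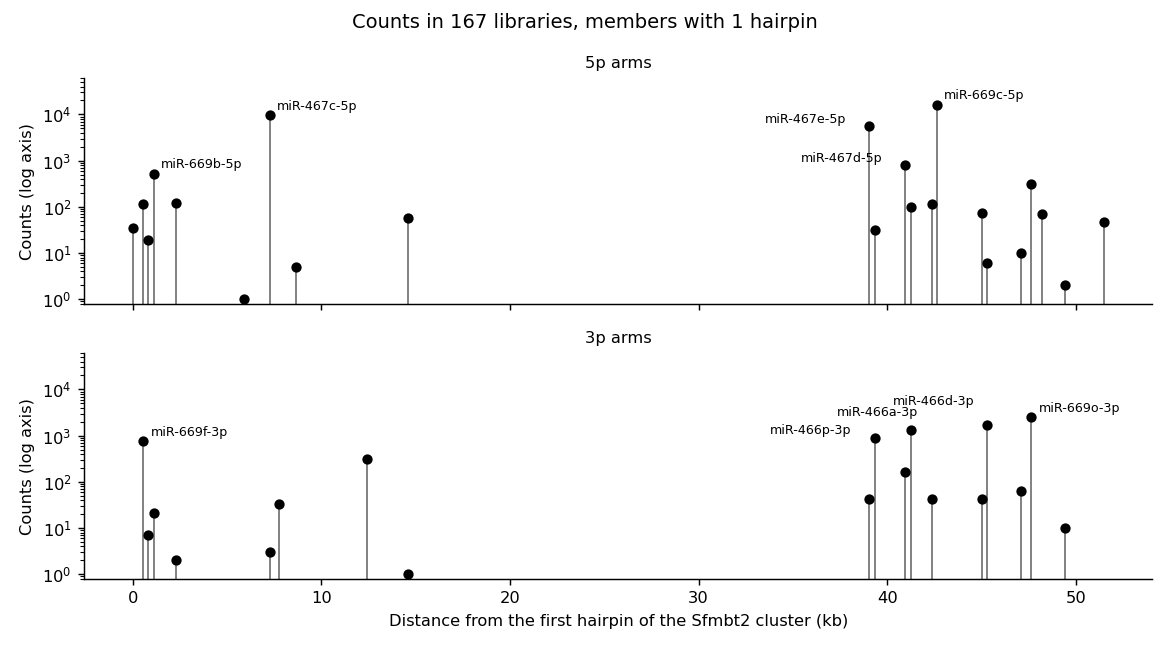
Total counts over 167 libraries (log axis) against the distance of the hairpin from the first hairpin of the Sfmbt2 stretch (kb), for counted members encoded by a single hairpin there, 22 of the 5p arm (top) and 18 of the 3p arm (bottom). Each stem is 1 member. miR-669c-5p (16328 counts) and miR-467c-5p (9691 counts) stand highest, and many hairpins near them gave far fewer counts.

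Pooled over tissues, most hairpins had a preferred arm. 29 hairpin names were listed with both arms and had at least 10 counts, 5 of them with 1 arm at 0, and in none of them did the 95% Wilson interval of the 5p share hold an even split. The 5p arm was preferred in 18 and the 3p arm in 11. miR-669c was 100% 5p, with 16328 counts of the 5p arm and 0 of the 3p arm. miR-467c was 99.97% 5p, with 3 counts of the 3p arm. By contrast the 5p arm was 0.348% of miR-466d, 6.96% of miR-466a, 10.9% of miR-669o and 20.3% of miR-669a. Within single tissues the interval held an even split in 5 of 111 cases with at least 10 counts, among them miR-297b in WBC (41.7% 5p, 28.8% to 55.7%, against 81.0% in brain) and miR-297c in WBC (55.7%, 44.1% to 66.8%). The name stem did not fix the arm, since miR-669c and miR-669o preferred opposite arms. These intervals cover counting error only. No step that collapses duplicate reads is described in the sources used here, so the counts may not be independent molecules.

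The family was a small share of every library, and its level varied with tissue, strain and sex. In lung the summed family level was 108 ± 13.6 RPM (SD, n = 8) in sham C3H and 49.6 ± 12.4 RPM (n = 15) in sham C57. In heart it was 42.8 ± 19.7 RPM in sham C3H and 29.3 ± 6.61 RPM in sham C57, and in brain 165 ± 33.6 RPM and 104 ± 14.9 RPM. As shares of the library total the solid tissues thus ordered as brain, lung and heart in both strains. In the fits between tissues given below, the place of brain depended on the scaling. Within sham animals the sum was higher in brain than in lung in 8 of 8 C3H mice (median ratio 1.46) and in 15 of 15 C57 mice (median ratio 2.18). It was higher in lung than in heart in 8 of 8 C3H mice (median ratio 2.97) and in 15 of 15 C57 mice (median ratio 1.52). Blood was more variable. The sum in sham WBC was 88.7 ± 51.3 RPM (n = 5) in C3H, 166 ± 18.9 RPM (n = 4) in C57 females and 513 ± 226 RPM (n = 7) in C57 males. Brain exceeded WBC in 4 of 5 sham C3H mice, whereas WBC exceeded brain in 11 of 11 sham C57 mice (median ratio 3.22). RBC held 30.3 ± 13.8 RPM in sham C3H and 23.4 ± 20.8 RPM in sham C57. As the mean log2 RPM over the members tested in a tissue, a scale that weights each member alike, lung was at 0.95 ± 0.28 in sham C3H and 0.07 ± 0.39 in sham C57. The same mean was 1.37 ± 0.48 and 0.67 ± 0.31 in brain, 0.47 ± 0.70 and -0.07 ± 0.46 in heart, -0.34 ± 0.69 and 1.79 ± 0.71 in WBC, and 0.32 ± 0.63 and -0.33 ± 0.90 in RBC. These C57 means pool males and females, whereas all C3H mice were female. The set of members differed between tissues, with 29 in WBC and 14 in RBC, so these means cannot be compared between tissues. More WBC libraries came from C57 than from C3H, so members near 0 in C3H could pass the filter through C57. The strain gap of the WBC means can therefore depend on the filter.

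**Figure D2:**
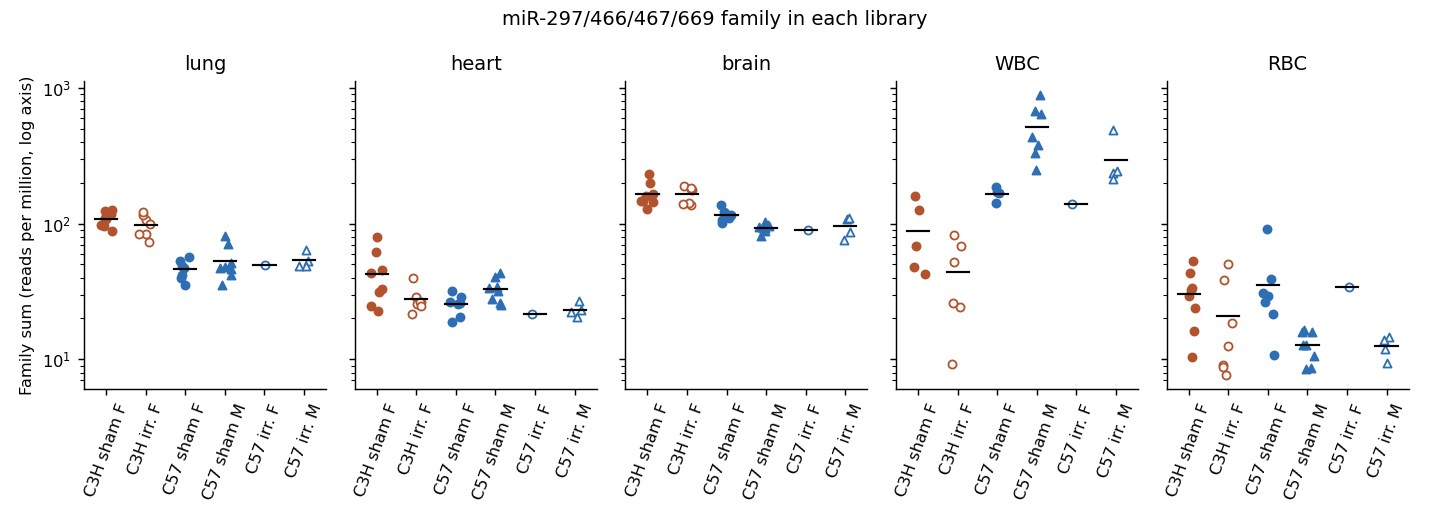
Family sum (RPM, log axis) in each of 167 libraries by tissue, strain, irradiation and sex. Filled symbols are sham, open symbols irradiated, circles females, triangles males and black lines group means. Sham C57 male WBC lie between 248 and 885 RPM, above the other sham WBC libraries, which reach 186 RPM.

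The mix of members changed with the tissue. miR-669c-5p averaged 56.3 RPM in brain, 56.0 in WBC, 27.4 in lung, 5.98 in heart and 5.11 in RBC. miR-467c-5p averaged 64.7 RPM in WBC but 7.97 in brain, 7.87 in lung, 6.24 in RBC and 4.63 in heart. For miR-669c-5p these means pool groups that ran in opposite order: sham brain and WBC averaged 69.9 and 26.7 RPM in C3H females, 60.4 and 41.4 RPM in C57 females, and 31.9 and 118 RPM in C57 males. Within animals brain was above WBC in 4 of 5 sham C3H females and 4 of 4 C57 females, and WBC was above brain in 7 of 7 C57 males. In groups of brain libraries miR-669c-5p made up 42.7% to 48.6% of the family and miR-467c-5p 5.82% to 7.31%, whereas in groups of WBC libraries the shares were 21.7% to 30.8% and 25.3% to 34.8%. miR-467c-5p was higher in WBC than in each other tissue in 5 of 5 sham C3H mice and in 11 of 11 sham C57 mice. The other abundant members were miR-467e-5p (17.8 RPM in WBC, 15.2 in brain, 11.3 in lung), miR-467a-5p (19.0 in WBC, 10.9 in brain, 4.10 in lung), miR-669o-3p (12.5 in WBC, 4.22 in brain, 3.45 in lung) and miR-669a-3p (11.96 in WBC, 4.72 in brain, 3.21 in lung). These means pool strains and sexes too, and in sham C3H brain was above WBC on average for all 4, at 18.4 against 6.23 RPM for miR-467e-5p, 14.3 against 6.33 for miR-467a-5p, 5.81 against 3.65 for miR-669o-3p and 6.34 against 3.17 for miR-669a-3p. For miR-467e-5p brain was also above WBC in C57 females (12.6 and 9.89 RPM), and WBC above brain in C57 males (40.8 and 12.3 RPM). miR-466d-3p averaged 5.21 RPM in brain, 4.87 in WBC and 0.522 in RBC, with sham brain and WBC at 7.25 and 2.24 RPM in C3H females, 4.55 and 4.47 RPM in C57 females, and 3.81 and 9.69 RPM in C57 males. Mature miRNAs have nearly equal lengths, so RPM was compared between members without a length term, as shares of a library.

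Sham tissues were compared with levels averaged over strains, first WBC with RBC. These joint fits used the libraries they compared, and a member entered when it had a count in a share of at least 0.5 of those libraries in any 1 tissue, so that more members were tested than in single tissues and some entered only through the tissue where they are high. The call required an adjusted p under 0.05 and a log2 difference of 1.17 or more in either direction, in limma with quantile normalisation. 24 of 36 tested members were called higher in WBC and 0 lower, where 16.8% of all tested miRNAs were called and 11% were called higher. Of the 24, 14 had passed the filter in both WBC and RBC. The summed leukocyte markers were not higher in WBC than in RBC, with medians over all sham and irradiated libraries of 21869 and 26950 RPM. Erythrocyte markers had medians of 40107 and 52074 RPM. The leukocyte sum thus did not follow the labels of the fractions. However, the myeloid miRNA miR-223-3p, a marker in that sum, was on average higher in WBC than in RBC in sham C57 mice of both sexes. The part of these cells in the result was not tested. miR-669c-5p differed by 1.78 ± 0.18 (log2 difference ± SE, adjusted p = 1.56e-14), miR-467c-5p by 1.73 ± 0.19 (adjusted p = 2.23e-13) and miR-466d-3p by 2.65 ± 0.33 (adjusted p = 3.35e-11). Between lung and heart, 2 of 36 members were called (26.6% of all miRNAs, 13.7% higher): miR-669c-5p (1.54 ± 0.19, adjusted p = 5.15e-12) and miR-669d-5p, which had not passed the filter in heart, both higher in lung. Only miR-669c-5p of these was called with TMM factors, which also called miR-669a-5p lower (-1.24), with members split 18 to 18, and edgeR called 3 higher and 2 lower. Between brain and the mean of lung and heart the direction depended on the scaling. With quantile normalisation 35 of 36 members were lower in brain and 5 were called lower (49% of all miRNAs were called, 27.2% lower), whereas with library size alone 36 of 36 were higher and 11 were called higher (62.7% of all miRNAs were called, 50.7% higher), and with trimmed mean (TMM) factors none was called and the members split 19 lower to 17 higher. The median over all tested miRNAs moved from -0.22 with quantile normalisation to 0.23 with TMM and 1.21 with library size. The members' own medians were -0.45, -0.14 and 0.83, below the median of all miRNAs on each scale. Between the blood fractions and the solid tissues 20 members were called higher with quantile normalisation (62.2% of all miRNAs were called, 31.6% higher), 13 of which had passed the filter in every tissue, against 1 higher and 4 lower with library size alone. miR-467c-5p was higher in blood on every scale, by 3.82, 2.21 and 1.25 in the same order.

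Strains were compared between sham females. In lung 5 of 21 members were called, all lower in C57 than in C3H, where 4.65% of all tested miRNAs were called and 3.1% were called lower. The count was 8 with TMM factors, in edgeR and with sham mice of both sexes, but 3 with filterByExpr, 3 in letter A alone and 2 with at least 10 counts in every library. miR-669c-5p was 30.3 to 58.0 RPM (median 43.8) in the 8 C3H lungs and 14.4 to 26.9 RPM (median 17.2) in the 7 C57 lungs, a log2 difference of -1.23 ± 0.18 (adjusted p = 1.45e-05). miR-467e-5p was 14.8 to 22.3 RPM (median 18.7) in C3H and 3.87 to 8.69 RPM (median 7.56) in C57 (-1.29 ± 0.17, adjusted p = 8.4e-07). miR-467c-5p was 8.42 to 17.4 RPM (median 12.3) in C3H and 1.70 to 6.11 RPM (median 3.99) in C57 (-1.51 ± 0.25, adjusted p = 4.51e-05). For each of these 3 members every C57 lung was below every C3H lung. They had been picked by their adjusted p, and the share of all tested miRNAs without overlap was not computed. The less abundant miR-466p-3p (-1.45 ± 0.41, adjusted p = 0.0174) and miR-669b-5p (-1.40 ± 0.46, adjusted p = 0.0433) were also called, and miR-466d-3p (-1.17 ± 0.24, adjusted p = 0.000633) fell just short of the fold minimum. Of the 21 members 20 had a negative difference, with a median of -1.06 against 0.02 for all tested miRNAs. The male C57 lungs, which did not enter this comparison, held 9.01 to 26.6 RPM of miR-669c-5p. Cardiac muscle miRNAs were lower in the same C57 lungs, miR-499-5p by a log2 difference of -2.99 and miR-133a-3p by -1.20, and summed epithelial markers averaged 25573 RPM in C57 female lungs against 16871 RPM in C3H lungs. The part of these cells in the result was not tested.

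In brain 24 of 24 members had a negative difference and 2 were called lower (3.06% of all miRNAs were called, 1.07% lower). miR-669o-3p was 1.75 to 10.3 RPM (median 5.10) in 8 C3H brains and 0.798 to 3.25 RPM (median 1.88) in 7 C57 female brains (-1.54 ± 0.32, adjusted p = 0.00191). miR-669o-5p, the other arm of the same hairpin, averaged 1.41 RPM in C3H and 0.400 RPM in C57 (-1.61 ± 0.51, adjusted p = 0.0424). miR-467a-5p (-0.91 ± 0.27) and miR-669a-3p (-0.87 ± 0.26), both with an adjusted p of 0.0319, passed the adjusted p but were under the fold minimum, which made 4 members lower by adjusted p alone (5.96% of all miRNAs). miR-669c-5p differed by -0.25 in brain. These calls were not stable: with both sexes of sham mice together 0 members were called, and within the letters 0 were called in A and 10 in B. In heart 0 of 17 members were called (9.36% of all miRNAs), and the smallest adjusted p was 0.0647 for miR-669o-3p (-1.03 ± 0.41). 14 of the 17 differences were negative, with a median of -0.50. Other scalings made calls in heart, all lower: 3 with TMM factors, 5 in edgeR and 5 with library size alone, where 9.98%, 10.8% and 11.2% of all miRNAs were called, at medians over all miRNAs of -0.06, -0.07 and -0.34. The spread in heart was partly along the letters: the family sum was 43.2 to 79.7 RPM in sham C3H hearts of letter A and 22.7 to 32.9 RPM in those of letter B. The heart with 79.7 RPM also had the highest leukocyte marker sum, 10253 RPM. In letter B alone the miR-669o-3p difference was 0.23. The part of leukocytes was not tested.

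In WBC 2 of 29 members were called, a share not above that of all miRNAs, both higher in C57 (13.3% of all miRNAs were called, 7.46% higher). With library size alone it was 10 of 29, where 22.6% of all miRNAs were called, and with sham mice of both sexes 9. miR-669d-5p averaged 1.85 RPM in the 4 C57 females and 0.304 RPM in the 5 C3H females (1.49 ± 0.43, adjusted p = 0.0174). In irradiated WBC it averaged 1.48 RPM in C57 and 0.0212 RPM in C3H, so it may have passed the filter mainly through C57 libraries. miR-466c-3p averaged 4.67 RPM in C57, from 3.15 to 6.21, and 1.09 RPM in C3H, from 0 to 2.26 (1.85 ± 0.56, adjusted p = 0.0224). For both, all 4 C57 libraries were above all 5 C3H libraries. Both had been picked by their calls, and the share of all tested miRNAs without overlap was not computed. The count ranged from 0 to 3 when single libraries were left out, and none was called within letter A or within letter B. miR-669c-5p was 38.3, 38.9, 40.02 and 48.5 RPM in the C57 females and 11.3, 11.5, 25.1, 31.0 and 54.7 RPM in the C3H females, so the groups overlapped. For miR-467c-5p the same C57 and C3H libraries had 33.3, 36.2, 37.9 and 44.2 RPM against 15.5, 15.6, 17.1, 39.5 and 44.4 RPM. These also overlapped. In the plot of miR-467c-5p and miR-669c-5p against the myeloid miRNA miR-223-3p, the C3H WBC libraries, sham and irradiated, lay at the low end. The part of myeloid cells in the strain difference of WBC was not tested. In RBC 0 of 14 members were called (6.93% of all miRNAs), and the smallest adjusted p was 0.344 for miR-669a-3p.

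The change of the strain difference between tissues was tested directly in sham females. From lung to WBC 5 of 31 members were called (8.52% of all miRNAs, 4.85% higher), each with a C57 minus C3H difference that was higher in WBC. They included miR-669c-5p (1.26 ± 0.35, adjusted p = 0.0112), miR-467c-5p (1.30 ± 0.43, adjusted p = 0.0385) and miR-466f (2.46 ± 0.63, adjusted p = 0.00699). From heart to WBC 5 of 31 were called (14.3% of all miRNAs, 6.82% higher), and from brain to WBC 4 of 31 (11.1%, 5.64% higher), again all higher. miR-669o-3p was called in both, by 1.91 ± 0.60 (adjusted p = 0.0205) against heart and 2.19 ± 0.58 (adjusted p = 0.00624) against brain. miR-466f was called in all 3, but it had passed the filter in WBC alone, where its means were 0.780 RPM in C57 and 0.129 RPM in C3H, and it was at 0 in all 7 C57 brains. Of the calls, 4 against lung, 2 against heart and 3 against brain were of members that had passed the filter in both tissues. Between RBC and WBC 1 of 31 was called (4.72% of all miRNAs, 2.1% lower), miR-669o-5p at -3.08 ± 0.84 (adjusted p = 0.0129). This member had not passed the filter in RBC and was at 0 in all 8 sham C3H RBC libraries, so the fitted size depends on the prior count, and it was not called with TMM factors, with library size alone or in edgeR. Without single WBC libraries the counts for lung, heart and brain ranged from 3 to 9, 3 to 8 and 2 to 7. Their direction stayed higher in WBC with each scaling. The part of myeloid cells of WBC in these changes between tissues was not tested.

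**Figure D3:**
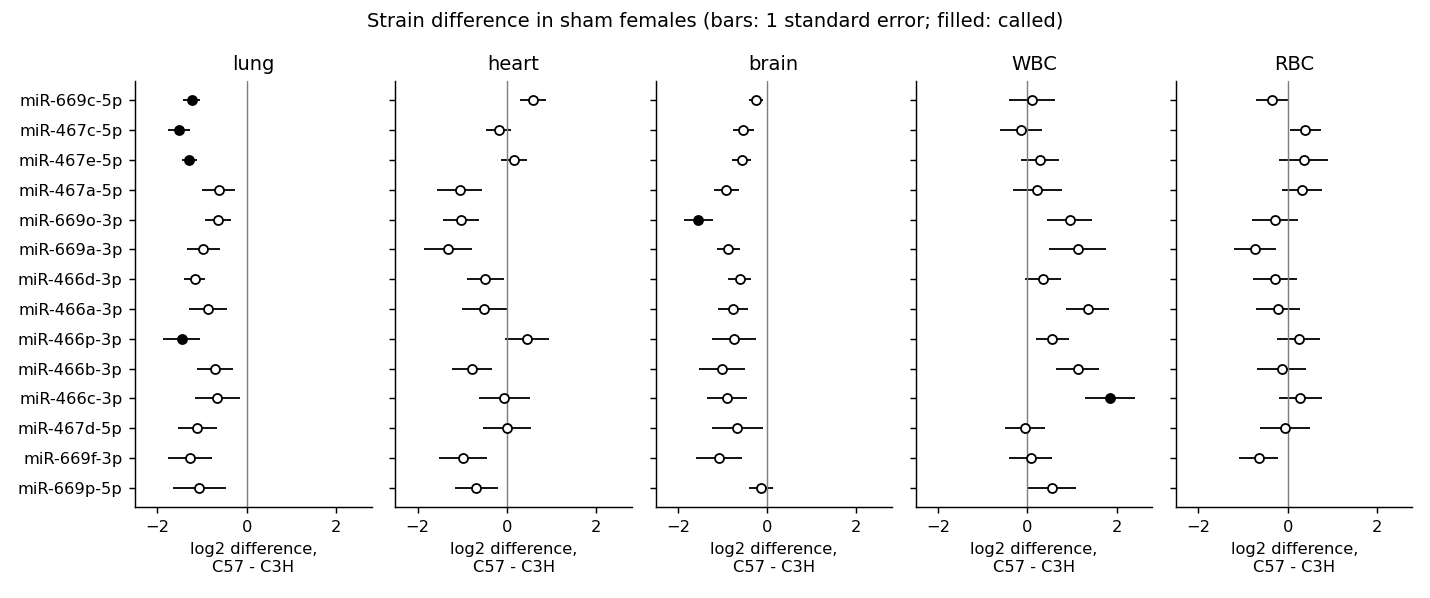
C57 minus C3H difference in sham females (log2 scale) for the 14 members with the most counts, in each tissue where the member was tested. Points are estimates, bars 1 standard error, and filled points were called. In lung every point lies left of 0, with miR-669c-5p at -1.23, and in WBC most lie right of it.

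Within C57, sham males were compared with sham females, which also differed in age range. The members did not move together. In brain 0 of 24 members were called (3.52% of all miRNAs), but 2 passed the adjusted p (13.1% of all miRNAs) and moved in opposite directions. miR-669c-5p was 40.9 to 78.1 RPM (median 62.2) in 7 females and 28.7 to 35.6 RPM (median 31.8) in 8 males (-0.92 ± 0.17, adjusted p = 0.000423). miR-669o-3p was 0.798 to 3.25 RPM (median 1.88) in females and 3.36 to 5.64 RPM (median 4.33) in males (1.15 ± 0.33, adjusted p = 0.0168). Neither member overlapped between the sexes, but both were picked by their adjusted p, and the share of all tested miRNAs without overlap was not computed. The 1 irradiated female had 57.4 RPM of miR-669c-5p and the 4 irradiated males 32.9, 41.1, 47.5 and 48.5 RPM, so 3 of the 4 irradiated males lay above all sham males. Epithelial miRNAs of the miR-200 family moved in the same brains: all 5 listed were called lower in males, and their sum was 352 to 41037 RPM (median 10474) in females and 172 to 2165 RPM (median 300.5) in males. The female with the lowest sum, 352 RPM, which is within the male range, also had the lowest miR-669c-5p of the 7 females, 40.9 RPM, which was above all 8 sham males. The part of epithelial cells in the result was not tested.

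In heart the same 2 members moved in the same directions. 4 of 17 members were called between the sexes (9.36% of all miRNAs), 3 higher in males (6.24%) and 1 lower (3.12%). miR-669c-5p was 6.49 to 13.5 RPM (median 7.13) in females and 2.15 to 5.93 RPM (median 4.15) in males, without overlap (-1.34 ± 0.32, adjusted p = 0.00316). miR-669o-3p averaged 0.846 RPM in females and 2.68 RPM in males (1.38 ± 0.40, adjusted p = 0.0126), miR-669a-3p reached at most 1.37 RPM in females and 4.61 RPM in males (1.52 ± 0.54, adjusted p = 0.034) and miR-669f-3p averaged 0.0813 and 1.18 RPM (2.21 ± 0.52, adjusted p = 0.00316). With each of the 15 hearts left out in turn the call of miR-669a-3p was lost in 6 fits and that of miR-669o-3p in 1, without female replicate 9, and those of miR-669c-5p and miR-669f-3p held in all 15. The other 13 tested members were not called, among them miR-466a-3p at -0.65 and miR-467a-5p at 0.85. Leukocyte markers summed to 1672 to 2603 RPM in male hearts and 986 to 1592 RPM in female hearts, and their part was not tested. Within letter A alone 0 of the 4 heart calls held. In lung 0 of 21 members were called (2.13% of all miRNAs), and miR-669c-5p overlapped, at 14.4 to 26.9 RPM in females and 9.01 to 26.6 RPM in males. The change of the sex difference from lung was called in heart for 1 of 36 members (3.58% of all miRNAs, 2.56% higher), miR-669f-3p at 2.32 ± 0.72 (adjusted p = 0.0433). In edgeR 0 of 36 were called there (1.79% of all miRNAs). In brain 0 of 36 were called (2.17% of all miRNAs). For miR-669c-5p that change had an adjusted p of 0.0834 in heart and 0.56 in brain.

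In blood the sex difference was not alike in the 2 fractions. In WBC 1 of 29 members was called, higher in males (3.96% of all miRNAs were called, 2.1% higher), a share near that of all miRNAs. All 29 fitted differences were positive with quantile normalisation and 26 of 29 with TMM factors, with a quantile median of 0.66 against -0.01 for all tested miRNAs. The called member was miR-467d-5p, which averaged 8.83 RPM in males and 2.08 RPM in females (1.41 ± 0.41, adjusted p = 0.0445). That call was lost when any of the 4 females was left out, and 9 members were called with library size alone, where 9.79% of all miRNAs were called and their median was 0.45. miR-467c-5p was 50.6, 62.1, 62.8, 120, 211, 220 and 310 RPM in the 7 males, all above the 4 females at 33.3 to 44.2 RPM. In RBC 3 of 14 members were called lower in males (5.26% of all miRNAs were called, 2.49% lower). miR-467c-5p was 3.60 to 17.7 RPM (median 9.46) in 7 females and 1.34 to 5.07 RPM (median 3.05) in 8 males (-1.40 ± 0.36, adjusted p = 0.00723). miR-467a-5p was 0.327 to 14.5 RPM (median 2.49) in females and 0 to 0.965 RPM (median 0.539) in males (-2.10 ± 0.48, adjusted p = 0.00257), and miR-466d-3p was 0 to 3.02 RPM (median 0.573) in females and 0 to 0.300 RPM (median 0) in males (-1.51 ± 0.50, adjusted p = 0.0456). When each of the 15 libraries was left out in turn, the calls of miR-467c-5p and miR-467a-5p held in all 15 fits, and that of miR-466d-3p was lost in 10, with an adjusted p of 0.127 without the female library at 3.02 RPM. Within letter A alone none of the 3 was called. The change of the sex difference from RBC to WBC was called in 12 of 36 members (7.54% of all miRNAs, 4.86% higher), all in the direction of higher male WBC, and 6 of the 12 had passed the filter in both fractions, among them miR-467c-5p at 2.31 ± 0.36 (adjusted p = 4.83e-06), miR-467a-5p at 3.21 ± 0.65 (adjusted p = 0.00038) and miR-669c-5p at 1.30 ± 0.38 (adjusted p = 0.0173). From brain to WBC 3 of 36 were called (7.29% of all miRNAs, 3.84% higher), and of these miR-669c-5p (1.29 ± 0.40, adjusted p = 0.0282) had passed the filter in both tissues.

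**Figure D4:**
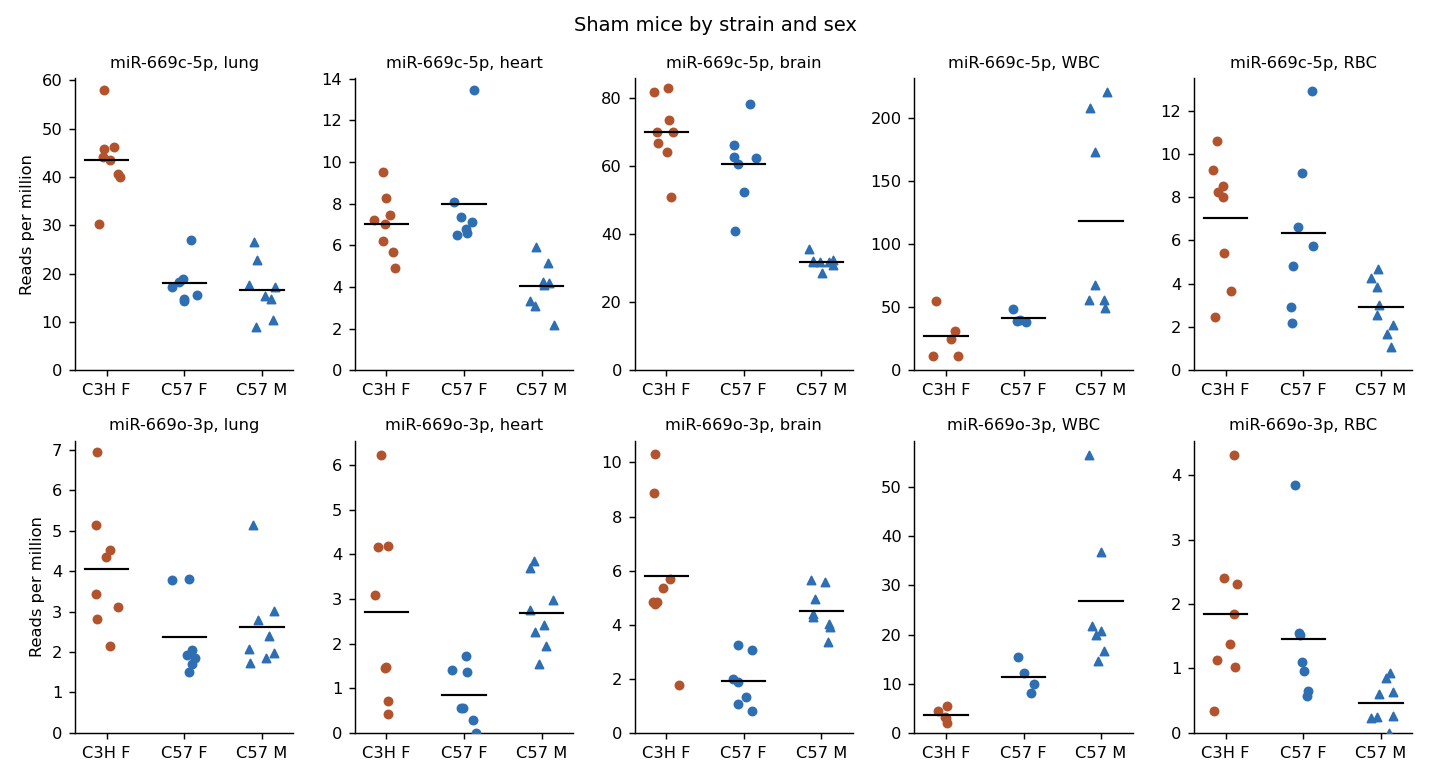
RPM of miR-669c-5p (top) and miR-669o-3p (bottom) in sham libraries of 5 tissues, for C3H females, C57 females (circles) and C57 males (triangles). Lines are means, and each panel has its own axis from 0. In brain the C57 sexes do not overlap for either member and lie in opposite order, with medians of 62.2 and 31.8 RPM for miR-669c-5p and of 1.88 and 4.33 RPM for miR-669o-3p.

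The myeloid miRNA miR-223-3p moved with the sex difference in blood. It was 852 to 3860 RPM in sham C57 male WBC and 390 to 601 RPM in females, and in RBC it averaged 92.5 RPM in males and 218 RPM in females. In the 11 C57 male WBC libraries, sham and irradiated together, log2 RPM of miR-467c-5p and of miR-223-3p correlated at Pearson r = 0.988 and Spearman rho = 0.964 (permutation test, two-sided, p = 2e-05 for both, the smallest the 100000 resamples can give, adjusted p = 0.00012 for r). Without the 2 libraries farthest from the median of miR-223-3p r was 0.979. With each letter's mean removed r was 0.983, within the 6 libraries of letter B it was 0.993, and letter A held 5 libraries, too few for a value. With the treatment means removed r was 0.986. For miR-669c-5p r was 0.978 (rho = 0.973, permutation adjusted p = 0.00012 for r), and 0.964 without the 2 farthest. In C57 males the correlation of the same members was weak with the lymphocyte miRNA miR-150-5p (r = 0.105 and 0.0518, permutation p = 0.759 and 0.886) and negative with the erythrocyte miRNA miR-451a (r = -0.819 and -0.774, permutation adjusted p = 0.00492 and 0.00504). In the 11 C3H female WBC libraries miR-467c-5p followed miR-223-3p at r = 0.851 (rho = 0.9, permutation adjusted p = 0.0036), and at 0.693 without the 2 farthest. For miR-669c-5p r was 0.657 (permutation adjusted p = 0.0488) and rho 0.655 (permutation adjusted p = 0.0658, which does not pass), r was 0.587 with the treatment means removed and 0.402 without the 2 farthest, so this relation rests on those libraries, with 0.955 within the 6 libraries of letter B. In these C3H libraries r was -0.0652 and 0.123 with miR-150-5p and 0.00306 and 0.124 with miR-451a (permutation adjusted p from 0.967 to 0.968). Without the 2 libraries farthest from the marker's median r was -0.722 and -0.444 with miR-150-5p and -0.274 and -0.329 with miR-451a, whereas within letter B r with miR-150-5p was 0.860 and 0.821, so no direction is read from these. These were 12 relations, chosen after the values were seen, and both axes are shares of 1 library total.

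**Figure D5:**
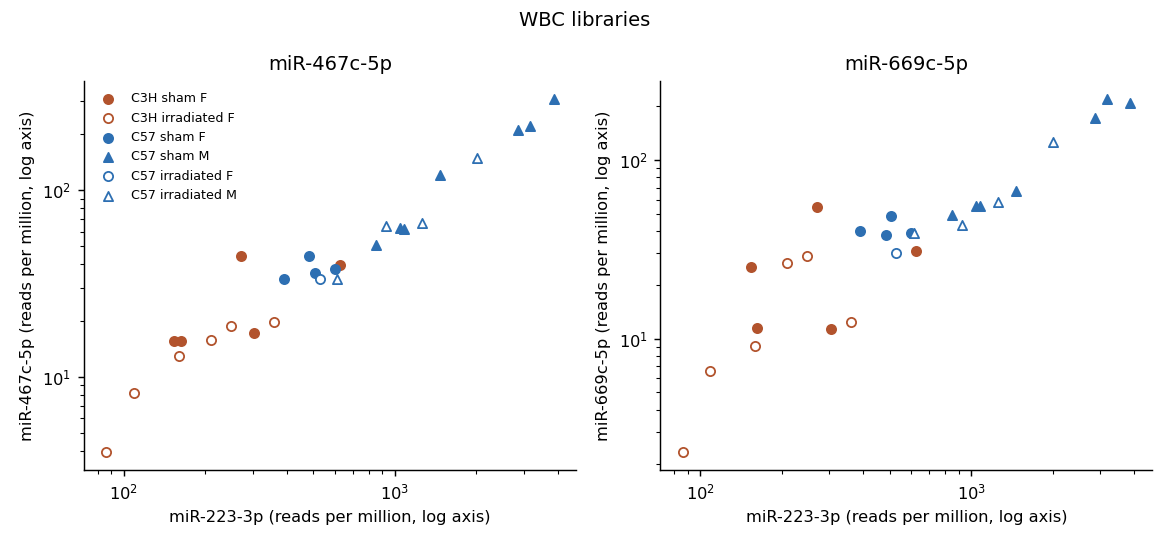
RPM of miR-467c-5p (left) and miR-669c-5p (right) against RPM of miR-223-3p in the 27 WBC libraries, on log axes. Filled symbols are sham, open symbols irradiated, circles females and triangles males, brown C3H and blue C57. The C57 males lie along a rising line with r = 0.988 for miR-467c-5p, and the C3H libraries lie at the low end with more scatter.

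Irradiation was compared with sham within each strain. In C3H lung 1 of 21 members was called, lower (7.95% of all miRNAs were called and 2.71% called lower), and 4 were lower by adjusted p alone (10.9% of all miRNAs). miR-467e-5p was 8.24 to 17.5 RPM (median 13.6) in 7 irradiated lungs and 14.8 to 22.3 RPM (median 18.7) in 8 sham lungs (-0.97 ± 0.17, adjusted p = 3.39e-05), and 5 of the 7 irradiated lungs were below all sham lungs. miR-466d-3p averaged 4.25 RPM after irradiation and 5.78 RPM in sham (-0.76, adjusted p = 0.0104), and miR-669c-5p 37.3 and 43.6 RPM (-0.60, adjusted p = 0.0123). The called member, miR-669d-5p (-1.90 ± 0.51, adjusted p = 0.00553), had 0 to 1.30 RPM in irradiated and 0.259 to 1.90 RPM in sham lungs, which is at most 5 counts in an irradiated library, and its groups overlapped. No member was called with filterByExpr, with at least 10 counts in every library, or in letter A alone. The median difference of members was -0.48 against -0.09 for all miRNAs, and -0.08 against 0.26 with library size alone. Cardiac muscle miR-499-5p was lower in the same lungs by 1.47 on the log2 scale. In C57 lung 0 of 21 members were called (4.84% of all miRNAs), and the smallest adjusted p was 0.121 for miR-467e-5p (-0.43). The difference between the strains' responses was called for 0 of 21 members (0.194% of all miRNAs), with an adjusted p of 0.335 for miR-669d-5p, the smallest.

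Outside the lung few members differed after irradiation. In C3H heart miR-669b-5p was called lower (1 of 17, 4.37% of all miRNAs, 1.46% lower; -1.37 ± 0.45, adjusted p = 0.0486), at 0 to 0.287 RPM in irradiated and 0.293 to 1.23 RPM in sham hearts. This was 0 to 1 count against 1 to 4 counts per library, and the call was lost when any of the 7 irradiated hearts was left out, in either letter alone, and in edgeR. In C57 heart 0 of 17 were called (0.832% of all miRNAs), with miR-466p-3p closest (-1.20, adjusted p = 0.234). In brain, WBC and RBC of both strains limma called 0 members and 0% of all miRNAs, although 7 of the 29 members in C3H WBC had an unadjusted p under 0.05, as did 7.93% of all miRNAs tested there. The closest members were miR-466p-3p in C3H WBC (-1.43, adjusted p = 0.151) and miR-669f-3p in C3H RBC. miR-669f-3p had 0 counts in each of the 7 irradiated C3H RBC libraries and 1 to 5 counts in each of the 8 sham libraries (0.335 to 1.42 RPM), with a log2 difference of -1.64 ± 0.46 (adjusted p = 0.164), whose size depends on the prior count. It was called in edgeR and DESeq2. In a fit of all tissues together, with the animal as a replicate block, 5 members were called lower in C3H RBC (4.32% of all miRNAs): miR-669f-3p, miR-669o-3p, miR-467e-5p, miR-669a-3p and miR-466b-3p, with adjusted p from 7.75e-10 to 0.0335. The smallest was that of miR-669f-3p, the member at 0 counts after irradiation. The within-animal correlation in that fit was 0.0094, so the block had little weight. Unlike the fit of RBC alone, it shared the quantile normalisation and the estimate of the spread over all tissues. That fit also called miR-466p-3p in C57 heart (-1.36, adjusted p = 0.0224, 1.31% of all miRNAs) and miR-669d-5p in C57 RBC (-1.71, adjusted p = 0.0191, 1.05%), both lower, and did not call miR-669b-5p in C3H heart (adjusted p = 0.133). miR-669d-5p had not passed the filter in RBC and was at 0 in all 5 irradiated C57 RBC libraries against a mean of 0.289 RPM in sham, so that its size depends on the prior count. miR-466p-3p had 0 to 1 count in the 5 irradiated C57 hearts and 0 to 3 counts in the 15 sham hearts. The family sum in C3H WBC was 9.24 to 82.9 RPM after irradiation and 42.7 to 159 RPM in sham, which overlapped.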

How the data were processed

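Small RNA of lung, heart and brain homogenates and of centrifuged WBC and RBC was sequenced by the authors with the QIAseq miRNA kit and aligned in BaseSpace to mm10. The authors deposited raw counts per mature miRNA in 5 tables of 1915 miRNAs each. Every column matched 1 sample (0 without a sample). Rules for reads that match several miRNAs are not given in the sources used here. The members and lists were chosen with earlier results of these data known.

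RPM was computed from each library's total. Following the study's methods, log2 RPM (prior count 0.5) were quantile normalised and fitted with limma-voom (R 4.3.3, limma 3.58.1), 1 fit per tissue, or 1 joint fit for comparisons between tissues (filter met in any tissue among the libraries fitted), with groups by strain and irradiation, and by sex for strain and sex contrasts. P-values were adjusted by Benjamini-Hochberg over all tested miRNAs, and two-sided. A call needed an adjusted p under 0.05 and a log2 change of at least 1.17. Alternatives were TMM factors, library size alone, edgeR 4.0.16 (quasi-likelihood), DESeq2 1.42.0, other count filters (filterByExpr, or at least 10 counts in every library), dropping the fold minimum, sex or the letter as covariates, each letter alone, both sexes of sham mice together, and leaving out single libraries. Scripts were tested on simulated data.

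Named members were, in each tissue, the 5 with the highest mean RPM, and in each contrast up to 5 called members with the smallest adjusted p or, with no call, the 1 with the smallest. Others were named after their values were seen. The sex contrasts, the tests of strain and sex differences between tissues, the separate fits of each letter for strain and sex, and the correlations were chosen after the data were seen.

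Replicates were separate mice. The same mice gave the tissues, so the animal numbers of the labels pair libraries across tissues. Deviations of the same animal from its group means correlated weakly between sham tissues (medians from -0.016 to 0.074 over 16 to 23 animals). No 2 libraries of a group were alike within sampling noise (smallest chi-square per degree of freedom 15.5 over 746 pairs). Loci came from the GENCODE annotation of GRCm38.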

Additional observations from a re-analysis of the deposited data

Results flagged for a closer look

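Of 125 sets of 4 to 10 libraries, 15 had a library that stood apart from the others (Dixon's test at the 95% level, which marks about 5% of sets by chance). For the family sum these were 1 sham C57 female RBC library at 90.8 RPM (next 39.2), 1 irradiated C57 male WBC library at 490.1 RPM (next 243) and 1 irradiated C3H heart at 39.6 RPM (next 28.8). For miR-669c-5p they were sham C57 females in WBC at 48.5 RPM, in heart at 13.5 RPM and in lung at 26.9 RPM. For miR-467c-5p they were irradiated C3H mice in heart at 9.99 RPM and in lung at 19.5 RPM. The heart was the one with the fewest cardiac muscle miRNAs (50690 RPM). For miR-467e-5p the same RBC and WBC libraries as for the sum stood apart, at 7.41 and 44.7 RPM. For miR-467a-5p these were that RBC library at 14.5 RPM, a sham C3H RBC library at 6.27 RPM, a sham C3H brain at 32.7 RPM (next 17.4), a sham C57 female brain at 18.6 RPM (next 8.93) and an irradiated C3H heart at 8.06 RPM (next 2.83). That C57 brain is the one with few epithelial miRNAs.

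The strain difference of WBC was tested against that of the other tissues. Against lung 5 members were called (8.52% of all miRNAs), with miR-466f at 2.46 and miR-669c-5p at 1.26 on the log2 scale. Against heart 5 of 31 were called (14.3% of all miRNAs, a share near that of the members), with miR-466f at 2.11 and miR-669a-3p at 2.30. Against brain 4 were called (11.1%), with miR-669o-3p at 2.19 and miR-466f at 2.18, and against RBC 1 (4.72%), miR-669o-5p at -3.08, which was at 0 in the C3H RBC libraries. miR-466f had passed the filter of the report in WBC alone.

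The sex difference of C57 mice was also tested between tissues. 1 member was called between heart and lung (3.58% of all miRNAs), miR-669f-3p at 2.32. Between WBC and RBC 12 were called (7.54%), with miR-467c-5p at 2.31 and miR-467a-5p at 3.21. Between WBC and brain 3 were called (7.29%), with miR-466n-3p at 1.68, which passed the filter of that joint fit of sham C57 libraries but of no tissue over all its libraries, and miR-669c-5p at 1.29. What these differences come from was not tested.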

How the results depend on the processing

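Counts below are members called, each with the percent of all tested miRNAs called in the same fit. With TMM factors they were 8 (5.43%) for strain in lung, 3 (9.98%) in heart and 1 (3.21%) in brain, 0 (54.5%) for brain against lung and heart, 13 (59.5%) for blood against solid tissues, 2 (29%) for lung against heart, 1 higher and 1 lower, and 3 (11.9%) and 0 (2.88%) for the strain difference of WBC against heart and RBC. With library size alone they were 5 (11.2%) for strain in heart, 1 (2.91%) in brain and 10 (22.6%) in WBC, 1 (3.67%) for sex in brain and 9 (9.79%) in WBC, 4 (28.8%) for lung against heart, 11 (62.7%) for brain, 5 (66.1%) for blood, 16 (13.8%), 18 (26.2%), 10 (16.3%) and 3 (8.78%) for the strain difference of WBC against lung, heart, brain and RBC, and 18 (12%) and 6 (9.34%) for the sex difference of WBC against RBC and brain. With edgeR they were 8 (6.01%), 5 (10.8%) and 1 (3.06%) for strain in lung, heart and brain, 0 (6.44%) and 1 (1.39%) for irradiation in C3H heart and RBC, 2 (4.2%) for sex in WBC, 5 (35%) for lung against heart, 3 higher and 2 lower, 1 (61%) for brain, 13 (62.5%) for blood, 3 (4.85%), 2 (7.99%) and 0 (2.36%) for the strain difference of WBC against lung, heart and RBC, and 0 (1.79%) for the sex difference of heart against lung. With DESeq2 they were 0 (7.56%) and 1 (3.32%) for irradiation in C3H heart and RBC, 5 (11.9%) for strain in heart, 7 (11%) for sex in WBC, 6 (35.2%) for lung against heart, 3 (61.2%) for brain and 7 (68.6%) for blood.

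Brain against lung and heart changed sign with the scaling: miR-466d-3p was at 0.087 with TMM, 1.07 with library size, 0.085 with edgeR and 0.35 with DESeq2. With library size miR-467c-5p was at 0.36, miR-467e-5p at 0.91, miR-669o-3p at 0.76 and miR-467d-5p at 0.46, and with DESeq2 miR-467e-5p was at 0.19 and miR-669o-3p at 0.029. miR-669c-5p in blood against solid tissues was at -0.56 with library size, and miR-669o-3p for strain in heart at 0.23 in letter B. The causes were not tested.

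With filterByExpr, which tests fewer members, the counts were 0 (9.71%) and 0 (6.73%) for irradiation in C3H lung and heart, 3 (5.54%) and 1 (3.04%) for strain in lung and brain, 2 (10.1%) and 6 (7.62%) for sex in heart and WBC, 1 (34.4%) for lung against heart and 15 (16.4%) for WBC against RBC. With at least 10 counts in every library they were 0 (5.7%) and 0 (4.9%) for irradiation in C3H lung and heart, 2 (3.51%), 0 (1.27%) and 0 (16.3%) for strain in lung, brain and WBC, 1 (36.4%) for lung against heart, 3 (75.6%) for brain, 4 (13.2%) for WBC against RBC and 4 (70.1%) for blood. Without a fold minimum they were 4 (21.7%) for irradiation in C3H lung, 4 (9.33%) for strain and 2 (13.1%) for sex in brain, 10 (54.6%) for lung against heart, 24 (78.7%) for brain and 35 (88.5%) for blood. In letter A they were 0 (8.3%) and 0 (6.09%) for irradiation in C3H lung and heart, 3 (2.57%), 3 (17.2%), 0 (1.24%) and 0 (2.28%) for strain in lung, heart, brain and WBC, and 0 (0.21%), 0 (7.29%) and 0 (4.11%) for sex in heart, WBC and RBC. In letter B they were 0 (2.45%) for irradiation in C3H heart, 10 (28.5%) and 0 (8.13%) for strain in brain and WBC, and 2 (19.4%) and 0 (0.451%) for sex in brain and WBC. With both sexes of sham mice they were 8 (5.23%), 0 (1.68%) and 9 (22.6%) for strain in lung, brain and WBC.

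With the animal as a replicate block in 1 fit of all tissues, irradiation gave 0 (4.84%) in C3H heart, 1 (1.31%) in C57 heart, 5 (4.32%) in C3H RBC and 1 (1.05%) in C57 RBC, and the block changed none of the counts of strain or sex differences between tissues. Lung against heart, brain against lung and heart, WBC against RBC, and blood against solid tissues gave 2 (26.6%), 5 (49%), 24 (16.8%) and 21 (62.3%) with the block. The within-animal correlation in the irradiation fit of all tissues was 0.0094.

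Over the 108 fits that left out 1 library, the count was 1 to 2 for irradiation in C3H lung, 0 to 0 in C3H heart, 0 to 3 for strain and 0 to 0 for sex in WBC, 2 to 4 for sex in heart and in RBC, 3 to 9, 3 to 8, 2 to 7 and 1 to 2 for the strain difference of WBC against lung, heart, brain and RBC, 11 to 16 and 2 to 3 for the sex difference of WBC against RBC and brain, and 23 to 25 for WBC against RBC. Many tested members had few counts per library, so their values carry large counting error.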

Other observations

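The motif UGUGUGU or ACACACA was also in 9 mature miRNAs outside the family. Of these, miR-672-5p averaged 125 RPM in brain, 58.2 in lung, 6.66 in heart and 2.90 in WBC. miR-672-3p averaged 42.8 RPM in brain and 8.97 in lung. miR-294-3p averaged 13.9 RPM in lung with a maximum of 374.5 RPM in 1 library. miR-32-3p averaged 4.28 RPM in lung, miR-3097-5p 0.0852 RPM, and miR-574-5p, miR-1187, miR-6348 and miR-3082-5p were listed at 0 in all libraries.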
